A study of Mus musculus with 10 samples.

Results

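Colony-stimulating factors are secreted cytokines that keep cells of the monocyte and granulocyte lineages alive and drive their growth, and 7 genes of this system were described in cultured mouse aortic smooth muscle cells. They were taken by symbol from the 36144 genes of the expression table, and all 7 were found: the ligand genes Csf1, Il34 and Csf2 and the receptor genes Csf1r, Csf2ra, Csf2rb and Csf3r. RNA was sequenced from primary vascular smooth muscle cells of male mice aged 8 weeks, with 3 mice and 3 libraries for each genotype. The wild-type mice carry no named transgene. The overexpression mice carry Myh11-Cre-ERT2, a Cre recombinase driven by the promoter of smooth muscle myosin, together with Adamts7 overexpression, labelled as VSMC-specific. Both groups share the source (aortic media with the adventitia removed), culture in DMEM with fetal bovine serum and use between passages 2 and 7. The labels name no Cre driver for wild type and no tamoxifen for either group, so driver, any tamoxifen and overexpression cannot be told apart.

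The system has several branches. Csf1 (macrophage colony-stimulating factor) and Il34 (interleukin 34) differ in sequence but bind the same receptor tyrosine kinase, Csf1r, which macrophages need to survive, and cells of the vessel wall are known sources of Csf1. Csf2 (granulocyte-macrophage colony-stimulating factor) binds the specific chain Csf2ra, which signals only together with the shared beta chain Csf2rb, and Csf3r is the receptor for the granulocyte factor Csf3. The Csf2 and Csf3 receptors have no kinase of their own and signal through JAK kinases and STAT factors.

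The libraries did not stand equally apart. Adamts7 RNA was at 6.08 to 8.20 TPM (a relative abundance of transcripts, corrected for their length and scaled to the same total in each library) in wild type and at 75.8 to 98.7 TPM in overexpression libraries, whose titles begin with the wild-type abbreviation. Along the first principal component (51.4% of the variance), the wild-type libraries scored from -20.3 to -16.8 and overexpression replicates 1 and 2 scored 18.6 and 39.4, whereas overexpression replicate 3 scored -0.67. Its Adamts7 RNA, at 75.8 TPM, was near the 79.1 TPM of overexpression replicate 2. Values of the tested members are also given without overexpression replicate 3. That library was singled out by these same data as the overexpression library nearest to wild type. Leaving it out therefore tends to widen differences by selection, and a pass without it is no independent support. Of the markers of the labelled cell type, Acta2 was at 1249 TPM, Tagln at 839 TPM and Myh11 at 37.3 TPM in wild type (means). The 12 smooth muscle markers summed to 4083 to 4203 TPM in wild type and 4699 to 6329 TPM in overexpression libraries. Of the 12, 7 were higher in overexpression cultures without overlap and 1, Smtn, was lower. Of the 13131 genes with a mean of 1 TPM or more, which are the genes tested, 14.3% were higher and 12.9% lower without overlap. The 13 endothelial markers summed to 5073 to 5594 TPM in wild type, above the smooth muscle sum in every wild-type library, and to 2582 to 4282 TPM in overexpression libraries. Emcn was at 2046 TPM and Cdh5 at 919 TPM in wild type (means). In overexpression cultures 9 of the 13 were lower without overlap, against 12.9% of all genes tested. The 21 macrophage markers summed to 488 to 712 TPM in wild type and 1184 to 3788 TPM in overexpression libraries. In bulk RNA, fewer cells of a type and less RNA per cell cannot be told apart. Sequencing depth cannot be read from TPM and is unknown here.

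Promoter sequences are shown for Csf1 and Csf2, the most abundant ligand and one under 0.5 TPM, and for Csf2rb2, the neighbour and close copy of Csf2rb. They come from a promoter table of RefSeq genes on GRCm38.p6 that has an entry for 4 of the 7 members. For Csf2ra and Csf3r the transcript start used there lies inside the gene's span, so their windows are not shown. Each sequence is the 250 bases before the annotated start, 5′ to 3′ on the gene's strand. Capitals mark matches to any of 3 motifs searched on both strands: GAGGAAG, a core of PU.1 sites (in 10.6% of 32851 promoter windows of this length), TGTGGT, a core of RUNX sites (14%), and TGANTCA, the AP-1 site (6.75%). A match describes letters only.
Csf1: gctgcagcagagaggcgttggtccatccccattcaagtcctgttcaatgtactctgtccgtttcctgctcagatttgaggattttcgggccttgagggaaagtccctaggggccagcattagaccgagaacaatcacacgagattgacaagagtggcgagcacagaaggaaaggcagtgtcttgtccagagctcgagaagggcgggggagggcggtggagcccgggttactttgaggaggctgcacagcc
Csf2: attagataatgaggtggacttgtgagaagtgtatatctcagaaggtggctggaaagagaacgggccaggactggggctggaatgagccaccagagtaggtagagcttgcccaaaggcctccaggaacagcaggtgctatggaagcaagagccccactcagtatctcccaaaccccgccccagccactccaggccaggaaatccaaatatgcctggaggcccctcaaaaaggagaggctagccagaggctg
Csf2rb2: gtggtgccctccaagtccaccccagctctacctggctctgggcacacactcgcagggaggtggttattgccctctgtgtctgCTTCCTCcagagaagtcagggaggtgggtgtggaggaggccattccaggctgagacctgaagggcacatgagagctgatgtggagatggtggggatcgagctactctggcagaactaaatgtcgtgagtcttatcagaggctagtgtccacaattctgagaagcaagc
They lie on the minus strand at chr3:107760470-107760719 (Csf1), chr11:54249900-54250149 (Csf2) and chr15:78305722-78305971 (Csf2rb2). None of the 3 motifs was found in the Csf1 and Csf2 windows, and the Csf2rb2 window held 1 PU.1 core on the strand opposite to the gene, 168 bases before the start.

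Of the ligands, Csf1 was among the most abundant transcripts of these cultures, of rank 123 of 36144 genes by mean TPM in wild type, while Il34 and Csf2 were each under 0.5 TPM on average. Csf1 (ENSMUSG00000014599.10, chromosome 3 from 107741048 to 107760469) stood at 953, 882 and 976 TPM in wild-type replicates 1, 2 and 3, and at 818, 638 and 902 TPM in the overexpression replicates. Overexpression replicate 3 lay above wild-type replicate 2, so the groups overlapped, and overexpression replicate 2 was the lowest library. Mean levels were 937 ± 48.9 TPM (wild type) and 786 ± 135 TPM (overexpression; SD, n = 3 each). The log2 fold change on the log2(TPM + 1) scale was -0.27 ± 0.13 (SE) and did not pass the threshold of 0.05 (limma adjusted p = 0.291). Without overexpression replicate 2 it was -0.12 (limma adjusted p = 0.444), and without overexpression replicate 3 it was -0.37 (limma adjusted p = 0.101).

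Il34 (ENSMUSG00000031750.15, chromosome 8 from 110741829 to 110805949), the other ligand of Csf1r, stood at 0.092, 0.251 and 0.027 TPM in wild type and at 1.18, 0.726 and 0.303 TPM in overexpression libraries. The groups did not overlap, which held in this direction for 4.3% of the 9382 genes with a mean above 0 and under 1 TPM. With a mean of 0.429 TPM, Il34 was below the 1 TPM required for the test across genes. Compared on its own in the 6 libraries, it had a two-sided exact permutation p of 0.1, below which 3 libraries against 3 cannot go. Without the filter on low values its log2 fold change was 0.60 (limma adjusted p = 0.301). The size depends on the pseudocount and was 0.94 with 0.5 and 1.88 with 0.1 in place of 1. Csf2 (ENSMUSG00000018916.5, chromosome 11 from 54247270 to 54249899) was also too low to be tested across genes, at 0.075, 0.201 and 0.332 TPM in wild type and 0.406, 0.129 and 0.420 TPM in overexpression libraries. Its groups overlapped (two-sided exact permutation p = 0.4). Csf3, the ligand of Csf3r, was at most 0.131 TPM in any library.

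**Figure D1:**
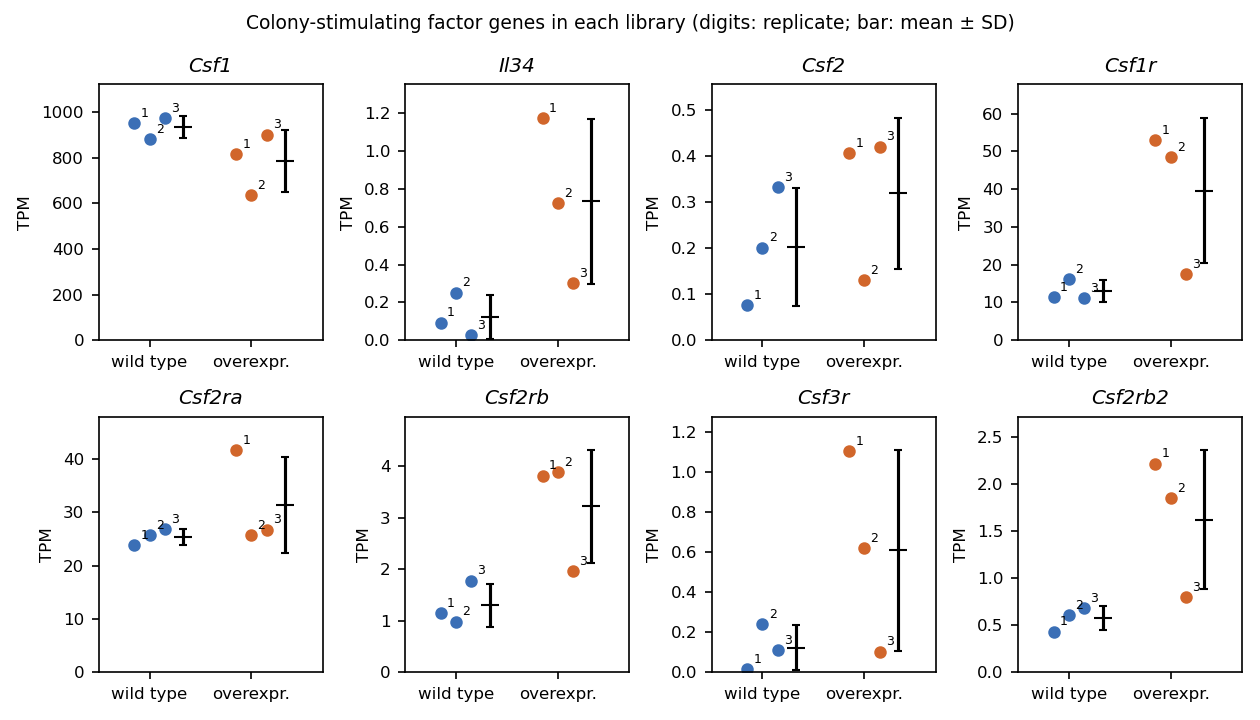
TPM (vertical axes, from 0) of the 7 members and of Csf2rb2 in each library, with the replicate number beside each point and the mean ± SD (n = 3) beside each group. Csf1 lies between 638 and 976 TPM in all libraries, and for Csf1r overexpression replicates 1 and 2 stand at 52.9 and 48.4 TPM while replicate 3, at 17.5 TPM, lies just above the wild-type libraries.

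Csf1r (ENSMUSG00000024621.16, chromosome 18 from 61105572 to 61131139), the receptor for Csf1 and Il34, had the largest log2 fold change among the 4 members tested, yet did not pass the threshold with all 6 libraries. It stood at 11.3, 16.3 and 11.1 TPM in wild-type replicates 1, 2 and 3, and at 52.9, 48.4 and 17.5 TPM in the overexpression replicates. Overexpression replicates 1 and 2 were far above every wild-type library, and replicate 3 was above them by little. The means were 12.9 ± 2.91 and 39.6 ± 19.3 TPM (SD, n = 3 each), a ratio of 3.07. The log2 fold change was 1.42 ± 0.39 (SE; limma adjusted p = 0.147). Without overexpression replicate 3 it was 1.91 and passed (limma adjusted p = 0.00228). With any other single library left out it did not pass (limma adjusted p = 0.260 to 0.363). With libraries weighted by quality, where overexpression replicate 1 received a weight of 5.66 and the others 0.278 to 1.54, it was 1.80 and passed (limma adjusted p = 0.00747).

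The beta chain shared by the receptors for Csf2, interleukin 3 and interleukin 5 was highest in the same 2 libraries as Csf1r. Csf2rb (ENSMUSG00000071713.6, chromosome 15 from 78325800 to 78351001) stood at 1.14, 0.985 and 1.78 TPM in wild type and at 3.82, 3.88 and 1.96 TPM in overexpression libraries. The groups did not overlap, though overexpression replicate 3 was close to wild-type replicate 3. The log2 fold change was 0.85 ± 0.25 (SE; limma adjusted p = 0.151), and 1.09 without overexpression replicate 3, which passed (limma adjusted p = 0.0312). With any other single library left out it did not pass (limma adjusted p = 0.273 to 0.354). Csf2rb also passed with libraries weighted by quality (1.03, limma adjusted p = 0.0107). Csf2rb2, a copy of the gene whose product serves interleukin 3, was at 0.434, 0.609 and 0.686 TPM in wild type and 2.22, 1.86 and 0.801 TPM in overexpression libraries. Reads of the 2 copies can be divided between them by the authors' estimation, so each single value is uncertain. Their sum was 1.58, 1.59 and 2.46 TPM in wild type and 6.04, 5.74 and 2.76 TPM in overexpression libraries, again without overlap, and Csf2rb was 1.62 to 2.64 times as abundant as Csf2rb2 in every library.

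The ligand-specific chain differed from its partner in both level and pattern. Csf2ra (ENSMUSG00000059326.7, chromosome 19 from 61217191 to 61228461) was at 23.9, 25.7 and 26.9 TPM in wild type and at 41.7, 25.7 and 26.8 TPM in overexpression libraries. Overexpression replicate 1 stood alone, and the other 2 overexpression libraries were within the range of wild type. The log2 fold change was 0.26 ± 0.18 (SE; limma adjusted p = 0.455), 0.043 without overexpression replicate 1 and 0.35 without overexpression replicate 3 (limma adjusted p = 0.295). Among the alternatives run it passed only with libraries weighted by quality, which favour that replicate (0.60, limma adjusted p = 0.023). Csf2ra exceeded the summed beta chains 10.9 to 16.1 times in wild type and 4.48 to 9.71 times in overexpression libraries.

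Csf3r (ENSMUSG00000028859.14, chromosome 4 from 126023441 to 126044975), the receptor of the granulocyte factor, was too low to be tested across genes. It stood at 0.016, 0.241 and 0.111 TPM in wild type and at 1.11, 0.621 and 0.104 TPM in overexpression libraries. Overexpression replicates 1 and 2 were above wild type and replicate 3 was within its range, so the groups overlapped (two-sided exact permutation p = 0.3).

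Counted together, 4 of the 7 members could be tested and 0 of these passed limma's adjusted threshold, against 2 of the 13131 genes tested (0.0152%). Csf1r and Csf2rb, 2 of the 4, had an unadjusted p under 0.05, both higher in overexpression cultures, where 10.6% of all genes tested were higher and 8.94% lower by that rule. The libraries did not overlap for the same 2 members, against 14.3% of all genes tested in that direction. Without overexpression replicate 3 these 2 of 4 members passed, and so did 3.99% of the 13141 genes then tested in that direction. With quality weights 3 of 4 passed as higher, Csf2ra with them, against 11.4% of all genes tested. Few members underlie these shares.

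**Figure D2:**
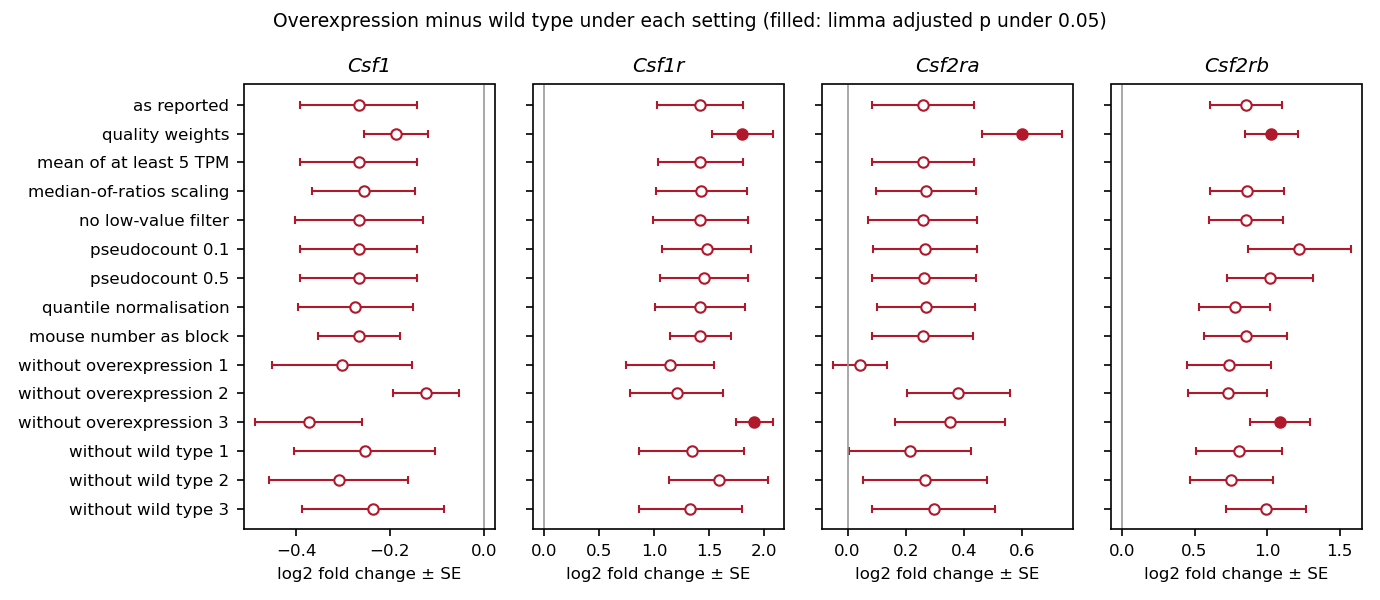
Log2 fold change ± SE (horizontal axes) of the 4 tested members with all libraries and under each alternative setting or left-out library (rows), with filled points where the limma adjusted p was under 0.05. Csf1r and Csf2rb are filled without overexpression replicate 3 and with quality weights, and Csf2rb has no point at a minimum of 5 TPM because its mean is lower; Csf2ra lies at 0.043 without overexpression replicate 1.

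The order of the levels differed between the genotypes for the receptors. In wild type, Csf2ra was at 25.5 ± 1.49 TPM, Csf1r at 12.9 ± 2.91 TPM and Csf2rb at 1.30 ± 0.42 TPM (SD, n = 3), with no overlap between neighbours. Csf2, Il34 and Csf3r followed at 0.202, 0.123 and 0.123 TPM and overlapped each other. In overexpression cultures Csf1r, at 39.6 ± 19.3 TPM, and Csf2ra, at 31.4 ± 8.93 TPM, overlapped. Csf2rb stood apart at 3.22 ± 1.09 TPM, and Il34, Csf3r and Csf2 overlapped at 0.735, 0.610 and 0.319 TPM. Csf1r was 0.414 to 0.633 times as abundant as Csf2ra in wild type and 1.27, 1.88 and 0.654 times in overexpression replicates 1, 2 and 3. Transcripts of Csf1 outnumbered those of its receptor in every library, by 84.1, 54.2 and 87.8 times in wild type and by 15.5, 13.2 and 51.5 times in overexpression cultures. Csf1 took 95.3% to 96.3% of the summed TPM of the 7 members in wild type and 88.9% to 95.0% in overexpression libraries.

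The ligands of Csf1r were also compared within each library. Csf1 exceeded Il34 on the log2(TPM + 1) scale by 9.71 ± 0.22 in wild type and 8.84 ± 0.52 in overexpression cultures (SD, n = 3 each). All 3 overexpression libraries lay below the wild-type libraries, though replicate 3, at 9.44, was close to the lowest wild-type value of 9.46. The difference was -0.87 (two-sided exact permutation p = 0.1, adjusted p = 0.1 over the 2 within-library differences tested), and no smaller p is possible in this design. It was -1.21 with a pseudocount of 0.5 and -2.14 with 0.1. Wild-type Il34 lies far below the added 1, which narrows the spread on this scale. As a plain ratio of TPM, Csf1 exceeded Il34 3511 to 36344 times in wild type and 696 to 2973 times in overexpression libraries.

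Macrophage markers were higher in the same libraries as Csf1r. On the log2(TPM + 1) scale relative to the wild-type mean, Csf1r stood at 1.97, 1.85 and 0.43 in overexpression replicates 1, 2 and 3, and the median of the 20 tested macrophage markers at 2.27, 1.99 and 0.73. All 20 had a log2 fold change above 0, from 1.05 to 2.30, and the libraries of the genotypes did not overlap for any of them, against 14.3% of all genes tested. With all libraries 0 of the 20 passed. Without overexpression replicate 3, 19 passed as higher, against 3.99% of the 13141 genes then tested. The exception among the 21 listed, Ccr2, a receptor of recruited monocytes, was at most 0.138 TPM. The part of macrophage content in the values of the members was not tested.

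Csf1r was set against the macrophage markers within each library. The difference between Csf1r and their median within a library was 1.10, 1.10 and 0.79 in wild type and 0.73, 0.72 and 0.43 in overexpression replicates 1, 2 and 3 on the log2(TPM + 1) scale, without overlap. The difference, overexpression minus wild type, was -0.37 (two-sided exact permutation p = 0.1, adjusted p = 0.1). Against the mean of the markers in place of the median the difference was -0.19 (two-sided exact permutation p = 0.3). Csf1 and Csf2ra had another order of libraries than the macrophage markers. In overexpression replicates 1, 2 and 3 Csf1 stood at -0.19, -0.55 and -0.053 and Csf2ra at 0.69, 0.014 and 0.071 relative to the wild-type mean. Endothelial markers had medians of -0.42, -0.92 and -0.24 in these libraries, lowest, like Csf1, in replicate 2. Smooth muscle markers, at 0.40, 0.44 and 0.17, were also furthest from wild type in replicate 2. The part of endothelial or smooth muscle content in the values of the members was not tested.

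**Figure D3:**
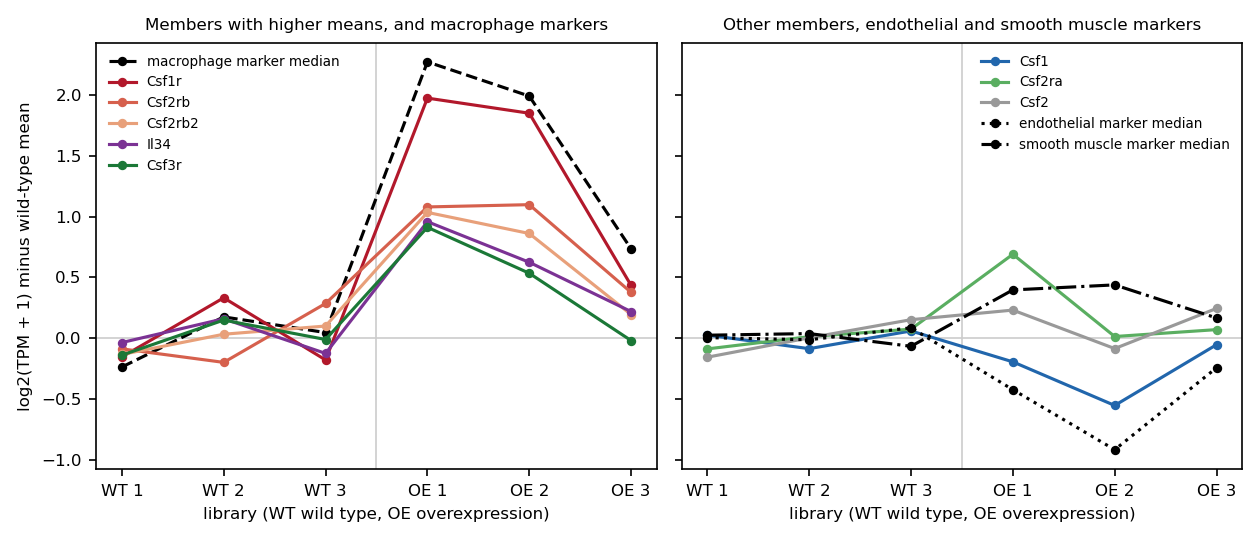
Difference of log2(TPM + 1) from the wild-type mean (vertical axis) in each library (horizontal axis), for members and for medians of marker lists; lines only join the points of one gene or list. In the left panel Csf1r stands at 1.97, 1.85 and 0.43 in the overexpression libraries beside a macrophage median of 2.27, 1.99 and 0.73, and in the right panel Csf1 and the endothelial median are both lowest in overexpression replicate 2, at -0.55 and -0.92.

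Of 12 related receptors and ligands 7 could be tested and 0 passed. Csf2rb2 reached the mean of 1 TPM required for the test only through the overexpression libraries. At an unadjusted p under 0.05 it and Pdgfrb were higher (10.6% of all genes tested) and Il3ra was lower (8.94%). Il3ra, the specific chain of the interleukin 3 receptor and a partner of Csf2rb, was the most abundant of them at 69.0, 68.7 and 66.5 TPM in wild type and 52.5, 39.0 and 60.5 TPM in overexpression libraries. Its groups did not overlap, in the direction opposite to Csf2rb, as for 12.9% of all genes tested. Its log2 fold change was -0.44 (limma adjusted p = 0.186). Without overexpression replicate 3 it was -0.58 (limma adjusted p = 0.0439), where 304 of 13141 genes passed as lower. The endothelial markers had a median of -0.50 with all libraries, and their part in the values of Il3ra was not tested. Pdgfrb, a receptor kinase of the same class as Csf1r that marks mural cells, was at 32.2 ± 3.30 and 56.8 ± 18.3 TPM (SD, n = 3 each; limma adjusted p = 0.148). Without overexpression replicate 3, Pdgfrb (log2 fold change 0.97, limma adjusted p = 0.021) and Csf2rb2 (0.95, limma adjusted p = 0.0484) also passed, both higher, where 3.99% of genes did. The other kinases of that class showed no separation: Kit was at 13.5 to 15.2 and 10.4 to 18.7 TPM, Pdgfra at 2.66 to 3.99 and 2.89 to 4.78 TPM, and Flt3 was at most 0.244 TPM. Their ligands Kitl and Flt3l were at 7.07 to 13.3 and 6.20 to 11.7 TPM over all libraries. The ligands Il3 and Il5 and the receptor gene Il5ra were each at most 0.181 TPM, and Il3 was listed at 0 in all 6 libraries.

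Genes that act below or beside Csf1r had log2 fold changes from -0.33 to 1.83. Of 27 genes 25 were tested and 0 passed, with 10 higher and 2 lower at an unadjusted p under 0.05, against 10.6% and 8.94% of all genes tested, and a median log2 fold change of 0.30, against -0.009 over all genes tested. Without overexpression replicate 3, 8 were higher past the threshold (3.99% of genes) and 0 lower. The macrophage markers had a median of 1.68 between the same libraries, and their part in these values was not tested. Ptpn6, a phosphatase of blood cells that dampens Csf1r signals, was at 7.21 ± 1.47 and 26.1 ± 9.76 TPM (SD, n = 3 each), and Vav1, a blood cell exchange factor, at 1.58 and 5.42 TPM. Fcer1g, an adaptor chain of myeloid receptors, was at 36.7 ± 4.93 and 124 ± 63.7 TPM (SD, n = 3 each). Grb2, the adaptor used by most receptor kinases, was at 69.7 ± 1.04 and 70.6 ± 2.86 TPM, with a log2 fold change of 0.018.

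Of 10 transcription factors known to act on the Csf1r gene, all were tested and 0 passed, with 6 higher and 2 lower at an unadjusted p under 0.05, against 10.6% and 8.94% of all genes tested, and a median log2 fold change of 0.62. Spi1 (PU.1), the factor of myeloid identity, was at 6.96, 8.46 and 7.35 TPM in wild type and 33.6, 31.2 and 9.89 TPM in overexpression libraries. Cebpa, a factor of myeloid and fat cells, was at 1.61 ± 0.27 and 6.32 ± 2.49 TPM (SD, n = 3 each), with a log2 fold change of 1.43 (limma adjusted p = 0.128). Cebpb, the most abundant, overlapped at 65.1 and 68.8 TPM, and Fli1, an ETS factor of endothelial and blood cells, was lower at 47.0 and 39.1 TPM without passing (log2 fold change -0.26, limma adjusted p = 0.216). Without overexpression replicate 3, 5 of the 10 passed, all higher, against 3.99% of genes in that direction. With all libraries the macrophage median was 1.68 and the endothelial median -0.50, and the part of either cell type in these values was not tested.

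Genes downstream of the Csf2 and Csf3 receptors, JAK kinases and STAT factors among them, had a median log2 fold change near that of all genes. Of 18 genes 15 were tested, with a median log2 fold change of -0.02, 0 past the threshold and 0 at an unadjusted p under 0.05, against 19.5% of all genes tested. The values ran from -0.52, for Cish (limma adjusted p = 0.435), to 0.26. Of the 3 genes too low to be tested, Socs1 and Ccl22 had overlapping groups. The third, Ccl17, was at 0, 0 and 0.247 TPM in wild type and at 0.619, 0.947 and 1.03 TPM in overexpression libraries. Its groups did not overlap, as for 4.3% of genes with a mean above 0 and under 1 TPM. The survival genes Mcl1 and Bcl2l1 were at 195 and 206 TPM and at 141 and 132 TPM in wild type and overexpression cultures. Socs2, a feedback inhibitor of STAT5, was at 39.4 ± 1.87 and 28.5 ± 10.5 TPM, and Bcl6, a transcriptional repressor, at 8.26 and 10.2 TPM, and neither passed. Without overexpression replicate 3, 1 of the 15 passed, Socs2, with a log2 fold change of -0.77 (limma adjusted p = 0.0465). In that fit 304 of the 13141 genes tested passed as lower. Cish was then at -0.84 without passing (limma adjusted p = 0.118).

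Csf1 also acts on osteoclast precursors together with the cytokine RANKL (Tnfsf11), and 7 of 13 osteoclast genes were tested, with 0 past the threshold. Their median log2 fold change was 0.68. At an unadjusted limma p under 0.05, 4 were higher and 0 lower, against 10.6% and 8.94% of all genes tested. Without overexpression replicate 3, Atp6v0d2 and Tnfrsf11b passed as higher, where 3.99% of genes did. Atp6v0d2, a proton pump subunit of osteoclasts and macrophages, was at 0.767 and 3.36 TPM and so was tested only through its overexpression level, and Tnfrsf11b (osteoprotegerin), the decoy receptor of RANKL, at 3.08 ± 0.29 and 13.5 ± 10.9 TPM (SD, n = 3 each), led by overexpression replicate 2 at 26.0 TPM. The abundant Nfatc1 and Itgb3 were at 22.9 and 20.4 TPM and at 19.5 and 17.9 TPM. RANKL itself was at most 0.023 TPM.

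**Figure D4:**
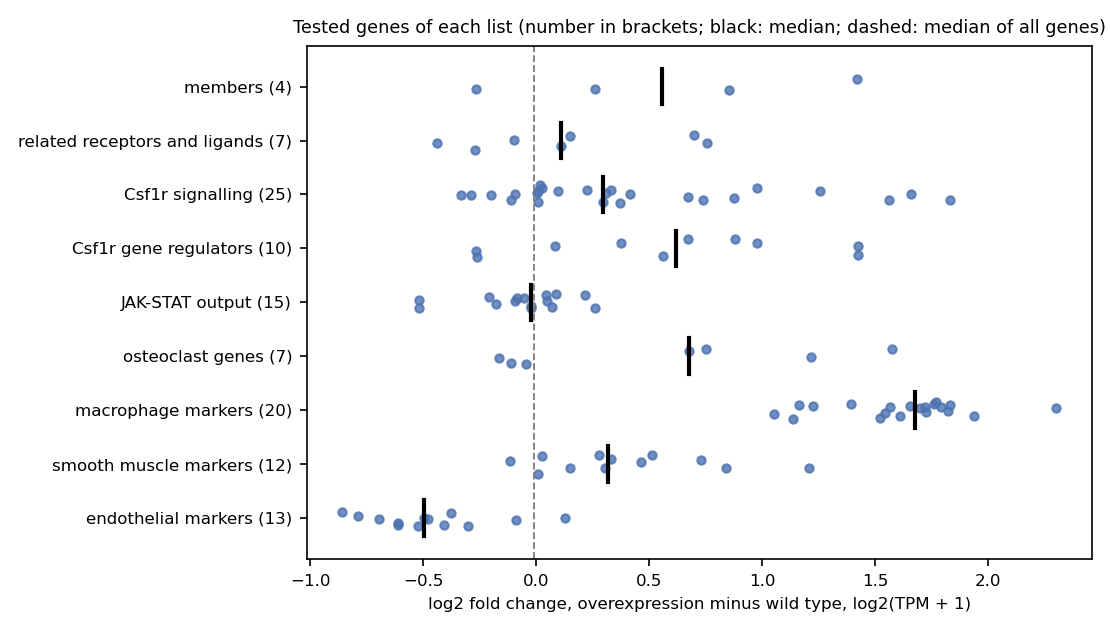
Log2 fold change between overexpression and wild type (horizontal axis) of each tested gene (points) in the fixed lists (rows), with the list median in black and the median of all 13131 genes, -0.009, dashed. The macrophage markers lie from 1.05 to 2.30, the JAK-STAT genes centre at -0.02, and no gene drawn passed the adjusted threshold; Csf2rb2 and Atp6v0d2 are drawn though they reached the required mean only through overexpression.

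Most markers of neutrophils, lymphocytes, mast cells and dendritic cells were low. Of 11 neutrophil markers, which would accompany Csf3r, 10 had a mean under 1 TPM, 4 were listed at 0 in all libraries, S100a9 among them, and their sum was 2.35 to 3.58 TPM in wild type and 3.43 to 5.82 TPM in overexpression libraries. Mmp8, a collagenase of neutrophils, was the one tested, at 0.875 and 3.35 TPM, and reached the required mean only through the overexpression libraries. All 11 lymphocyte and all 7 mast cell markers had means under 1 TPM over the 6 libraries, and Cd3e and Cpa3 were listed at 0 throughout. Il7r, the most abundant lymphocyte marker, was at 0.256 to 0.359 TPM in wild type and 0.603 to 1.76 TPM in overexpression libraries. Its groups did not overlap, as for 4.3% of genes with a mean above 0 and under 1 TPM. The groups of the other lymphocyte markers overlapped. Of 7 dendritic cell markers 3 were tested. Zbtb46, the most abundant, was at 4.05 and 4.98 TPM and Batf3 at 1.36 and 1.09 TPM, each with overlapping groups. Itgax was at 0.787 and 2.93 TPM and was likewise tested only through its overexpression level, and Cd209a was listed at 0. Fibroblast markers were more abundant, though 4 of the 9 had means under 1 TPM. Their sum was 179 to 189 TPM in wild type and 234 to 583 TPM in overexpression libraries, led by Col1a1 at 122 and 313 TPM. Of the 5 tested, 1 was higher and 1 lower without overlap, against 14.3% and 12.9% of all genes tested.

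The genes whose profile over the 6 libraries was nearest to that of Csf1r are known from myeloid cells. Nearness was the root mean square difference of log2(TPM + 1) after centring each gene on its mean, where 0 is an identical profile. Cd180, a Toll-like receptor relative of leukocytes, was nearest at 0.084, followed by the chemokine gene Ccl3 (0.10), the fractalkine receptor gene Cx3cr1 (0.11), Spi1 (0.11) and Fcer1g (0.12). The profile of Csf1r itself spanned 2.15 on that scale. Among the genes near to Csf1, whose profile spanned 0.61, were Wdr76 (0.025), the ubiquitin ligase gene Smurf2 (0.026), Tbc1d23 (0.026) and Pxk (0.030). Smurf2 was at 114, 107 and 112 TPM in wild type and 94.9, 75.0 and 106 TPM in overexpression libraries.

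Chromatin accessibility was measured by ATAC-seq in 2 mice per genotype, and the authors' deposited table gives 1 footprint score per motif and genotype over pooled libraries, so no error can be given. In the authors' deposited table the change score of overexpression over wild type (sign reversed from the deposit) was 0.20 for the joint STAT5 motif Stat5a::Stat5b, 0.25 for Stat5a, 0.18 for Stat5b and 0.27 for STAT3. For motifs of factors that act on Csf1r the authors' deposited table gave 0.12 for Spi1, 0.11 for Runx1, 0.36 for CEBPA and 0.28 for IRF8. The median over all 879 motifs of the authors' deposited table was 0.11, and 544 were above 0, so Spi1 and Runx1 lay at the middle of the motifs and CEBPA at percentile 81.3. These scores are means over sites genome-wide and do not single out the genes described here.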

How the data were processed

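RNA of 6 libraries and ATAC-seq of 4 libraries of cultured aortic smooth muscle cells were used, grouped by the genotype label. The authors deposited TPM per gene and library, made with kallisto per the labels. The submitters' processing notes name mm10; no source used here gives the kallisto version, annotation or read numbers. Each column sums to the same total, so values are relative. For ATAC-seq the authors deposited a motif table whose header is that of TOBIAS BINDetect, with a mean footprint score and counts of bound sites per genotype, libraries pooled, and a p-value that was not used.

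Genes that averaged 1 TPM or more in the 6 libraries were tested on log2(TPM + 1), a scale that understates changes of low genes, using the moderated linear models of limma 3.58.1 (R 4.3.3, trended eBayes), two-sided, Benjamini-Hochberg over all 13131 genes, threshold 0.05. Single values used exact permutation tests in Python 3.11.15 (numpy 2.4.6, pandas 2.3.3). The fit was checked on simulated data in which each gene and library was drawn independently. Those data hold no shift shared by many genes of a library, so the check does not cover such shifts. All libraries carry 1 batch label. The rule for naming took all members, all related receptors and ligands, and from each other list 2 genes by smallest p and 2 by abundance. It also took the 5 nearest profiles to Csf1r and Csf1 without predicted gene models, and Adamts7. From the cell type marker lists, several genes taken by this rule are not named in the text. Tagln, Myh11, Tnfsf11, Ccr2, Ccl17, markers listed at 0 and single genes behind small counts were named after their values were seen. A gene that the rule takes is not reported here. Members and lists were chosen with earlier results of these data known. Gene positions are from RefSeq on GRCm38.p6, the assembly of mm10, and 7 of 7 members were matched. Alternatives covered the pseudocount (0.1, 0.5), the filter (none, 5 TPM), scaling, library weights, a replicate block and leaving out each library.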

Additional observations from a re-analysis of the deposited data

How the results depend on the processing

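The direction of the 4 tested members was the same under all alternatives that gave a value, 14 each for Csf1, Csf1r and Csf2ra and 13 for Csf2rb, which a minimum of 5 TPM leaves out. Csf1r ranged from 1.14 to 1.91, Csf2rb from 0.73 to 1.22, Csf2ra from 0.043 to 0.60 and Csf1 from -0.37 to -0.12 in log2 fold change. The count of genes past limma's threshold was 2 as reported, 1 with a minimum of 5 TPM, 2728 with libraries weighted by quality, and from 1 to 828 when 1 library was left out, the highest without overexpression replicate 3. The 3 mice of one genotype are other animals than those of the other, and deviations of libraries with the same number had correlations of -0.022, 0.058 and 0.018, so the numbers were not taken to pair the libraries; with the mouse number as a replicate block the count was 1, and wild-type replicate 1 correlated best with overexpression replicate 3. The block changed no call of a member. The difference of Csf1r from the macrophage markers ranged from -0.47 to -0.19 and that of Csf1 from Il34 from -2.14 to -0.71, the latter widest with a pseudocount of 0.1. Il34, Csf2 and Csf3r, all under 0.5 TPM on average, are limited most by the unknown depth.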
